A study of Saccharomyces cerevisiae with 8 samples.

Results

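Subtelomeric XUT ORFs are the open reading frames (ORFs) of Xrn1-sensitive unstable transcripts (XUTs) that lie within 30 kb of a chromosome end in budding yeast, Saccharomyces cerevisiae. They were chosen by coordinate alone: an ORF on one of the 16 nuclear chromosomes was taken when it ended at or before nucleotide 30000, or began within the last 30 kb of its chromosome. The rule gave 1887 ORFs in 192 XUTs, which is 13.6% of the 13911 chromosomal ORFs in 1633 XUTs. The whole table lists 13941 ORFs, including 29 on the 2-micron plasmid and 1 on mitochondrial DNA. All 32 chromosome ends held at least 1 member, and the windows cover 7.95% of the chromosomal sequence. The remaining 12024 chromosomal ORFs served for comparison.

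Ribosome-protected fragments were sequenced from BY4741 cells grown in YPD at 30 °C. All cells were MATa and carried the his3Δ1, leu2Δ0, met15Δ0 and ura3Δ0 alleles. Wild type (WT) had no further change, and the upf1 strain carried upf1*::kanMX4. The table lists XUT ORFs only, so the UPF1 gene itself could not be checked in it. Each strain was taken untreated or after 15 min of cycloheximide (CHX), an inhibitor of translation elongation, which gives WT, WT + CHX, upf1 and upf1 + CHX as the 4 conditions. The labels list 8 libraries, 2 biological replicates per condition, but the deposited table merges them into 1 read count and 1 phase score per ORF and condition. There is therefore no spread between replicates and no test between conditions. Intervals in brackets are exact 95% intervals and cover counting error only, and neither ORFs nor XUTs are replicates of a condition.

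XUTs are long noncoding RNAs that are degraded by the cytoplasmic 5′ to 3′ exonuclease Xrn1, and they become visible when that enzyme is missing. Upf1 is the RNA helicase at the core of nonsense-mediated decay, the pathway that removes RNAs on which ribosomes stop early. Yeast chromosome ends carry X and Y′ elements and gene families that recur from end to end, such as the YRF1 helicases of the Y′ elements, flocculins, hexose transporters and maltose genes, and genes near telomeres are subject to silencing by Sir proteins. A footprint from a sequence present at several ends has no single place of origin in the genome.

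The sequences that carry most of what follows are short. In each one the capitals mark the start codon and the stop codon, the ORF length given excludes the stop codon, and the bases were read from the RefSeq sequence of build R64 at the coordinates of the table. All 1887 members begin with ATG and are followed by a stop codon in that sequence. The first 3 are members with at least 10 reads in each of the 4 conditions, the next 2 are among the shortest members with many reads, and the next 3 belong to XUTs whose read counts differed most between conditions or that led the read counts.
XUT0083, 51 nt, chr3:29592-29642, plus strand: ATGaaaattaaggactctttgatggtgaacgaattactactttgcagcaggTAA
XUT0468, 84 nt, chr9:29084-29167, plus strand: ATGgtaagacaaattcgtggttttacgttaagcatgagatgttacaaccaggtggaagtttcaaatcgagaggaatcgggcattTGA
XUT1022, 135 nt, chr3:309753-309887, minus strand: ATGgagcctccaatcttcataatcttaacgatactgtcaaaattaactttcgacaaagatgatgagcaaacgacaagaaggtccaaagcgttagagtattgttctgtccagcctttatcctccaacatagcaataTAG
XUT1121, 18 nt, chr5:9587-9604, minus strand: ATGaatatcagacgaaaaTGA
XUT1279, 15 nt, chr7:1080908-1080922, minus strand: ATGattttttcaacaTAG
XUT1181, 84 nt, chr6:263014-263097, minus strand: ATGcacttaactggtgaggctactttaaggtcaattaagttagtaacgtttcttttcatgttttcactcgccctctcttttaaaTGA
XUT1658, 288 nt, chr15:6514-6801, minus strand: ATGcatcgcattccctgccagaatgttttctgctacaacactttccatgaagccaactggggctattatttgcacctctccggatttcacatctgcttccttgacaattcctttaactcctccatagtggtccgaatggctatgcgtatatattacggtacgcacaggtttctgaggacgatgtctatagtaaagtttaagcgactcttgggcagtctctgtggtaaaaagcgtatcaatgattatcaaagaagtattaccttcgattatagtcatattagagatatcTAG
XUT1467, 252 nt, chr11:662152-662403, minus strand: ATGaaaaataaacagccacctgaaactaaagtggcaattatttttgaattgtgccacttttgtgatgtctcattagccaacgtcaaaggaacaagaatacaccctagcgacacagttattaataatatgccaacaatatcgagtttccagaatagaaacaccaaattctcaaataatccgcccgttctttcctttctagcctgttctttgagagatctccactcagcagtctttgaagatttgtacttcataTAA

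3 further members show the repeated class. Every 28-base stretch of each of them occurs elsewhere in the genome, 28 bases being close to the length of a ribosome footprint. The XUT0558 and XUT1354 ORFs have 2 exact copies each and the XUT0256 ORF has 11. The XUT0256 ORF was picked as an example after its values were seen.
XUT0558, 108 nt, chr10:740000-740107, plus strand: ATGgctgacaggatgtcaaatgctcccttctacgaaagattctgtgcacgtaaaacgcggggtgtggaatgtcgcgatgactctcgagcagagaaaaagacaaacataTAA
XUT1354, 93 nt, chr9:437687-437779, minus strand: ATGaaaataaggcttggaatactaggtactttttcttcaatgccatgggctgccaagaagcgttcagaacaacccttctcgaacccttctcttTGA
XUT0256, 81 nt, chr5:3784-3864, plus strand: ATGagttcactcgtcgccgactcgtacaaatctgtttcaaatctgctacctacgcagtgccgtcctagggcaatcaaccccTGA

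Members resembled the other ORFs in their general build. Median length was 48 nt in both sets, with a range of 15 to 690 nt in members and 15 to 4038 nt in the others. Median GC content was 38.9% in members and 39.4% in the others. An A stood 3 bases before the ATG, the position favoured in yeast start contexts, in 29.7% of members and 28.9% of the others. Members ran toward the chromosome end in 48.5% of cases and overlapped another listed ORF on their strand in 59.0%, against 47.9% and 61.1% of the others. The sets differed in what surrounds them. Of the members, 40.8% lay opposite an annotated coding sequence (CDS), against 59.6% of the others, and 1093 members touched no CDS or pseudogene on either strand. The remaining 25 members lay on the strand of a pseudogene, 12 in SDL1 and 13 in YIR043C. Annotated telomere features held 73 members, and long terminal repeats held 21.

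Members also differed in repeated sequence. A 28-base stretch found more than once in the genome occurred in 23.4% of members (441 ORFs) and in 5.36% of the others (645 ORFs). The stretches were centred on each base of an ORF, so they take in flanking bases and also cover ORFs shorter than 28 nt. In 223 members every such stretch was repeated, and 222 of these, spread over 72 XUTs, had an exact second copy of the whole ORF. Most of them (134 ORFs) had 2 copies, 47 had 11 copies, and 1 had 46.

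Read counts were summed over a set of 1276 members and 7912 other ORFs that do not overlap on the same strand. No nucleotide of a strand is thus counted in 2 ORFs. Whether a read near 2 neighbouring or opposite ORFs was counted in both is not known, because the counting rule is not given. In WT, 335 of 3331 reads lay in members, which is 10.1% (9.06 to 11.1). In WT + CHX, 2455 of 25568 reads did, 9.60% (9.24 to 9.97). The upf1 cells gave 2604 of 17826 reads, 14.6% (14.1 to 15.1), and upf1 + CHX gave 3592 of 31629 reads, 11.4% (11 to 11.7). Members hold 13.5% of the nucleotides in this set, so their share of reads lay below their share of sequence in 3 conditions and above it in untreated upf1. WT gave the fewest reads and so the widest interval.

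Per length, members carried 3.78 reads per kb and other ORFs 5.25 in WT, a ratio of 0.719 (0.640 to 0.805). The ratio was 0.683 (0.655 to 0.712) in WT + CHX, from 27.7 and 40.5 reads per kb. In upf1 it was 1.10 (1.05 to 1.15), from 29.4 and 26.7 reads per kb. In upf1 + CHX it was 0.824 (0.795 to 0.853), from 40.5 and 49.2 reads per kb. With repeated ORFs kept in, the upf1 value lay above 1 only with XUT0468, the subtelomeric XUT with most reads. Without XUT0468 it was 0.937, and without XUT0468 and XUT0083 it was 0.827. No leading transcript was left out of the other ORFs. The ratios without XUT0468 were 0.632 in WT, 0.648 in WT + CHX and 0.746 in upf1 + CHX, so upf1 stayed the highest of the 4 conditions and upf1 + CHX the next. When ORFs with a repeated 28-base stretch were left out on both sides, the ratios were 0.880 (0.779 to 0.991), 0.814 (0.779 to 0.851), 1.32 (1.26 to 1.38) and 0.977 (0.942 to 1.01) in WT, WT + CHX, upf1 and upf1 + CHX. The interval for upf1 + CHX then held 1. Leaving out XUT0468 and the repeated ORFs together was not tried.

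Against WT, upf1 had a 1.45-fold higher share of its reads in members (1.30 to 1.63), and lay between 1.41 and 1.74 over the alternative settings tried. With CHX the same contrast gave 1.18-fold (1.12 to 1.25), and 1.13 to 1.19 over the alternatives. WT + CHX against WT gave 0.955 (0.851 to 1.07), an interval that holds 1, and 0.933 to 1.20 over the alternatives. The highest of these, 1.20 (1.07 to 1.35) with plasmid ORFs kept in the total, excluded 1 in the other direction. The share in upf1 + CHX was 0.777 of that in upf1 (0.739 to 0.818), and 0.768 to 0.935 over the alternatives. With a window of 20 kb it was 0.935 (0.868 to 1.01), an interval that holds 1. These 4 contrasts share conditions, and the shares within a condition sum to 1, so a higher share in members is a lower share elsewhere. Whether more ribosomes per transcript, more transcript or both lay behind a share cannot be told apart from footprints alone.

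The contrast was present in members both with and without a gene opposite. Among reads in ORFs opposite a CDS, members held 7.23% in WT (5.85 to 8.82) and 9.80% in upf1 (9.19 to 10.4). Among reads in ORFs with no CDS on either strand, they held 9.98% in WT (8.71 to 11.4) and 15.6% in upf1 (14.8 to 16.4). With CHX the corresponding pairs were 6.0% and 7.32% opposite a CDS, and 11% and 12.6% elsewhere. Members were thus above WT in upf1 in each class. Whether the authors' counting used strand is not given in the sources used here, so reads in an ORF opposite a gene cannot be told apart from reads of that gene.

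Density did not change evenly with distance from the end. In the outermost 5 kb, members carried 0.840, 7.45, 12.2 and 17 reads per kb in WT, WT + CHX, upf1 and upf1 + CHX, which is 0.160, 0.184, 0.456 and 0.346 of the density of ORFs beyond 30 kb in the same condition. This was the lowest bin in every condition, and 58.9% of its 219 ORFs held a repeat. Without repeated ORFs the same bin still stood at 0.215, 0.286, 0.487 and 0.474 of the density of repeat-free ORFs beyond 30 kb, on 4, 42, 47 and 85 reads.

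The bin from 5 to 10 kb stood at 0.837, 0.935, 1.26 and 1.10 of the density beyond 30 kb in the same order of conditions. The 3 bins from 10 to 25 kb lay between 0.482 and 0.902. The bin from 25 to 30 kb was the highest, at 1.77, 1.13, 2.50 and 1.55. It holds XUT0468 and XUT0083, and without these 2 XUTs its reads per kb went from 9.30 to 2.76 for WT, from 45.9 to 18 for WT + CHX, from 66.8 to 15.5 for upf1 and from 76.4 to 22.3 for upf1 + CHX, all below the density of ORFs beyond 30 kb. The ORFs next to the window on the inner side, from 30 to 60 kb, were at 0.824, 0.819, 0.973 and 0.872.

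**Figure D1:**
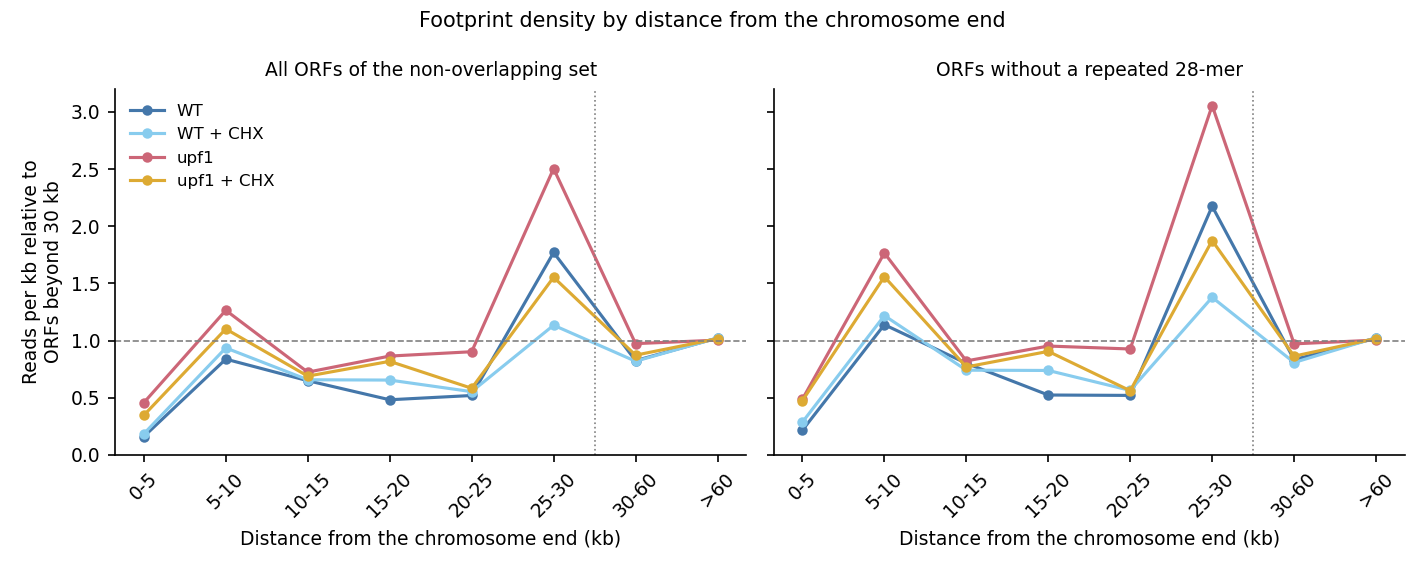
Reads per kb of ORF relative to ORFs beyond 30 kb (vertical axis) by distance from the chromosome end in kb (horizontal axis), for the 4 conditions, with all ORFs of the non-overlapping set on the left and ORFs without a repeated 28-mer on the right. The outermost bin is lowest in all 4 conditions, and the bin from 25 to 30 kb reaches 2.50 in upf1 on the left and 3.06 on the right.

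The rule cuts through 4 XUTs. XUT0083 has 6 of its 9 ORFs inside the window, XUT0250 has 6 of 23, XUT0326 has 30 of 40 and XUT0468 has 12 of 19. Just inside the line, a 57-nt ORF of XUT0083 ending 29991 nt from the end had 2, 18, 16 and 10 reads in WT, WT + CHX, upf1 and upf1 + CHX. Just outside, an ORF of XUT0468 ending at 30005 had 0, 0, 1 and 0 reads, and a longer one ending at 30045 had 1, 6, 12 and 7.

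At the level of single ORFs, members were read less often than the others in 3 of the 4 conditions. In WT, 208 members (11%, 9.64 to 12.5) had at least 1 read, against 14.4% of the others and a background of 13.9% over all chromosomal ORFs. In WT + CHX, 570 members (30.2%, 28.1 to 32.3) did, against 41.0% of the others and a background of 39.5%. In upf1 + CHX, 685 members (36.3%, 34.1 to 38.5) did, against 42.4% and a background of 41.6%. In upf1 the 687 members with a read (36.4%, 34.2 to 38.6) were at the background of 36.1%, and the others were at 36.1% too. Between conditions with 17826 and 3331 reads over the summed ORFs, 514 members (27.2%) had a read in upf1 and none in WT, against a background of 25.5% over all chromosomal ORFs. The reverse held for 35 members (1.85%), against a background of 3.26%.

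Repeated sequence moved with these shares. Among the 1446 members without a repeated 28-base stretch, the share with a read was 12.4%, 35.1%, 41.8% and 42.1% in the order WT, WT + CHX, upf1, upf1 + CHX. The 11379 repeat-free others gave 14.6%, 42.3%, 37.1% and 43.7%. Repeat-free members were thus below the others in WT + CHX (32.7 to 37.7 against 41.4 to 43.2) and above them in upf1 (39.2 to 44.4 against 36.2 to 38). The intervals overlapped in WT (10.8 to 14.3 against 14 to 15.3) and in upf1 + CHX (39.6 to 44.7 against 42.8 to 44.6). The 223 members that were repeated throughout gave 0.448%, 0.448%, 3.14% and 0.897%, and the 358 such ORFs elsewhere in the genome gave 0.279%, 0.838%, 2.79% and 2.23%. Of the 222 with a second exact copy, 213 (95.9%) had no read in any condition, and the highest pooled count among them was 2. A member ORF of this class with 0 reads is not shown to be free of ribosomes, because the treatment of reads that map to several places is not given in the sources used here.

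**Figure D2:**
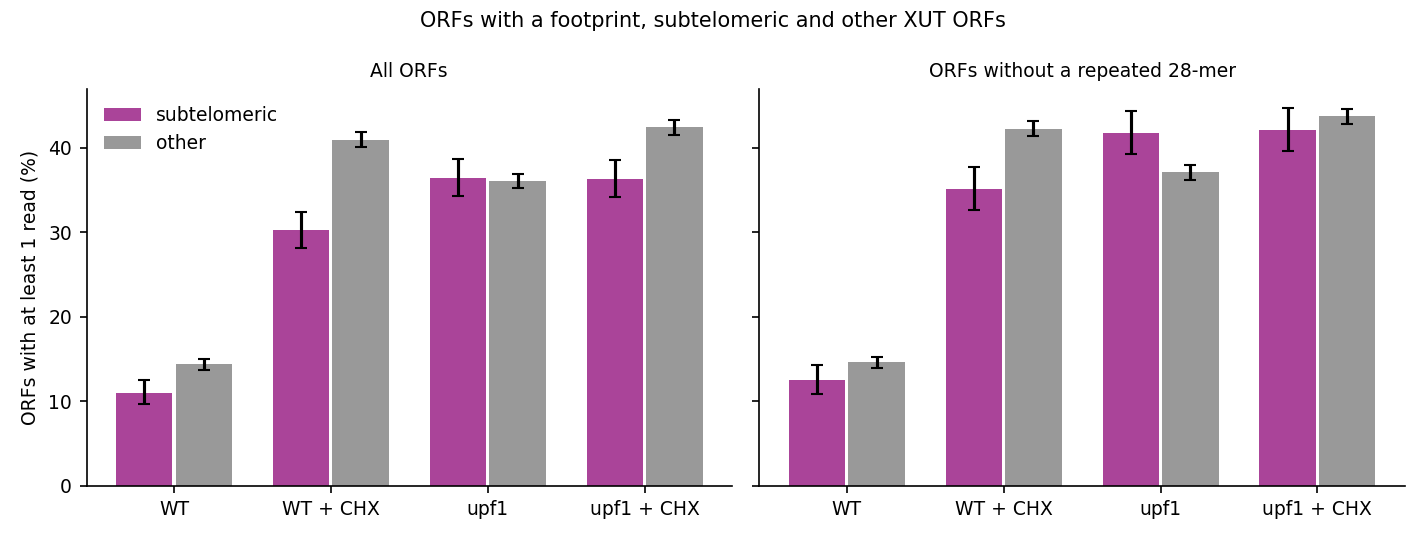
Percent of ORFs with at least 1 read (vertical axis) in the 4 conditions, subtelomeric ORFs in purple and other chromosomal ORFs in grey, with exact 95% intervals, for all ORFs on the left and for ORFs without a repeated 28-mer on the right. Subtelomeric bars are lower in WT, WT + CHX and upf1 + CHX on the left, and the upf1 pair stands at 36.4% and 36.1% on the left and at 41.8% and 37.1% on the right.

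In all, 854 members (45.3%) had no read in any condition, against 38.4% of the others. A read in all 4 was found for 135 members, a count not given here for the others. At the level of transcripts, 45 of the 192 subtelomeric XUTs (23.4%) were never read, against 9.34% of the other XUTs. These 45 XUTs hold 174 member ORFs, of which 79.3% contained a repeat.

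The deposited phase score runs from 0 to 1. It was taken here, from its name, to state how far the reads of an ORF keep to a single reading frame. How it was computed is not given. A single read mostly scores 1, so the score was read only at 10 or more reads, and an ORF was called at a score of 0.32 or more. At that depth WT gave 4 members, WT + CHX 75, upf1 61 and upf1 + CHX 97. Of these, 4, 48, 38 and 74 were called. This is 100% for WT, 64% for WT + CHX (52.1 to 74.8), 62.3% for upf1 (49 to 74.4) and 76.3% for upf1 + CHX (66.6 to 84.3). The background over all chromosomal ORFs at that depth was 68.1%, 64.2%, 62.5% and 72.6% in the same order, so the members' shares were near the background wherever more than 4 of them could be scored. Over the 4 conditions, 97 members in 51 XUTs were called at least once, out of 114 that reached 10 reads at least once, which is 85.1% against a background of 86.2% over all chromosomal ORFs.

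The share called also varied with the number of reads. In upf1, 28 of the 39 members with 10 to 19 reads were called, 9 of the 18 with 20 to 49 reads, and 1 of the 4 with 50 or more. Among other ORFs in upf1 the same classes gave 67.8%, 54.2% and 61.0%. In upf1 + CHX the members gave 41 of 52, 24 of 32 and 9 of 13, and the others 75.8%, 66.5% and 72.1%.

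4 members in 3 XUTs reached 10 reads in all 4 conditions. The 381-nt ORF of XUT0468 had 42, 135, 396 and 355 reads in WT, WT + CHX, upf1 and upf1 + CHX. Its scores were 0.412, 0.333, 0.312 and 0.308, so it passed 0.32 in both WT conditions and was just under it in both upf1 conditions. The 84-nt ORF of the same XUT, printed above, had 13, 36, 127 and 92 reads with scores of 0.456, 0.540, 0.422 and 0.405, and was the 1 member called in all 4 conditions. These 2 ORFs overlap and share reads.

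XUT0468 lies on the strand of SDL1 (YIL167W, chr9:29032-30048), which the reference annotates as a pseudogene with a blocked reading frame otherwise encoding L-serine dehydratase. The 381-nt ORF begins at the first nucleotide of SDL1, in its frame, and with its stop codon covers 384 nt or 37.8% of it. The 84-nt ORF begins 52 nt further on, shifted by 1 base. The reads of XUT0468 are counted over the annotated start of this former enzyme gene. They cannot be told apart from reads of an SDL1 transcript on the same strand.

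The 51-nt ORF of XUT0083 had 30, 156, 214 and 261 reads in WT, WT + CHX, upf1 and upf1 + CHX. Its scores were 0.388, 0.482, 0.316 and 0.512. It lies 656 nt from KAR4, the nearest gene, which encodes a transcription factor of mating and nuclear fusion. The 135-nt ORF of XUT1022 lies opposite ADH7, a NADPH-dependent alcohol dehydrogenase gene, and had 17, 86, 113 and 177 reads with scores of 0.506, 0.578, 0.276 and 0.666. Both ORFs were under 0.32 in untreated upf1 and above it in the other 3 conditions.

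The shortest well-read members were shorter than a footprint. The 18-nt ORF of XUT1121, which has 6 codons before its stop, had 6, 53, 38 and 50 reads with scores of 1.00, 0.604, 0.993 and 0.897. A 39-nt ORF of the same XUT begins on its last base, so that the TGA of the one and the ATG of the other overlap, and had 6, 39, 24 and 46 reads. The 15-nt ORF of XUT1279, with 5 codons, had 8, 45, 9 and 29 reads and scores of 0.667, 0.943, 0.816 and 0.854. These 2 XUTs were chosen after their values were seen. The scores of XUT1121 in WT and of XUT1279 in WT and upf1 rest on fewer than 10 reads, below the minimum set for reading the score. Of the members, 501 were shorter than 28 nt, and 14 of these reached 10 reads in some condition. They held 11.9%, 13.2%, 7.53% and 10.5% of member reads, conditions in the same order. The like values for the other ORFs are not given here.

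The 5 longest members had few reads or none, while the 381-nt ORF of XUT0468, which is shorter than these, had the most of all members. The 690-nt ORF of XUT1354, on the strand of the YIR043C pseudogene, had 0, 4, 3 and 6 reads in WT, WT + CHX, upf1 and upf1 + CHX, with 52.5% of its 28-base stretches repeated. Of the 2 ORFs of 435 nt, one lies opposite YIL177C (XUT0464) and one opposite YJL225C (XUT0507). They were repeated throughout, with 2 copies, and had no read. The 399-nt ORF of XUT0002, opposite the flocculin gene FLO9, had 1, 0, 3 and 0 reads, with 75.9% of its 28-base stretches repeated. The 390-nt ORF of XUT0999, opposite SUL1, had 3, 3, 9 and 4 reads and no repeat.

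Reads were concentrated in few transcripts. The 10 subtelomeric XUTs with most reads held 45.5% of member reads over all conditions. The like share for the other XUTs is not given here, so this concentration is not shown to be particular to members. XUT0468 and XUT0083 together held 25.4% of the member reads of WT, 15.0% of those of WT + CHX, 25.4% of those of upf1 and 19.5% of those of upf1 + CHX. Counting member ORFs only, XUT0468 had 42, 135, 396 and 355 reads, or 126, 52.8, 222 and 112 per 10000 reads in chromosomal XUT ORFs. XUT0083 had 43, 233, 266 and 347 reads, or 129, 91.1, 149 and 110 per 10000. These were the highest shares among the 10 XUTs in every condition, and both were lower with CHX than without it in each strain.

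XUT1022, opposite ADH7, had 18, 91, 131 and 197 reads. XUT0999, in part opposite SUL1, a high-affinity sulfate permease gene, had 10, 70, 100 and 107. Its ORFs opposite SUL1 held 7, 13, 71 and 34. XUT1417, in part opposite JEN1, which encodes a lactate and pyruvate transporter, had 8, 62, 108 and 90. Its ORFs opposite JEN1 held 1, 23, 71 and 41. Among these 3, the share in upf1 against WT was highest for XUT1417, at 2.52 (1.24 to 5.99), and its interval alone lay above 1. XUT1658, opposite the sulfatase gene BDS1, had 12, 60, 67 and 140 reads and a ratio of 1.04 (0.560 to 2.12). With CHX the ratio of the mutant to WT was 1.89 for XUT1658 (1.38 to 2.60), 1.75 for XUT1022 (1.36 to 2.27) and 2.13 for XUT0468 (1.74 to 2.61). The interval of XUT1417 with CHX, 0.840 to 1.65, held 1.

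For the other 4 of the 10, WT gave the lowest share of the 4 conditions, on 2 to 6 reads each. XUT1181, 663 nt from the cysteine-metabolism gene IRC7, had 2, 108, 45 and 125 reads. XUT1807, 214 nt from YPR196W, had 6, 57, 65 and 129. XUT0566, 338 nt from SRY1, a homologue of mammalian serine racemase, had 4, 75, 65 and 98. XUT1281, opposite ECM34 and YHL042W, had 6, 72, 37 and 110. As shares, XUT1181 was at 6.0 per 10000 reads in WT and at 25.2 to 42.2 in the other conditions.

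**Figure D3:**
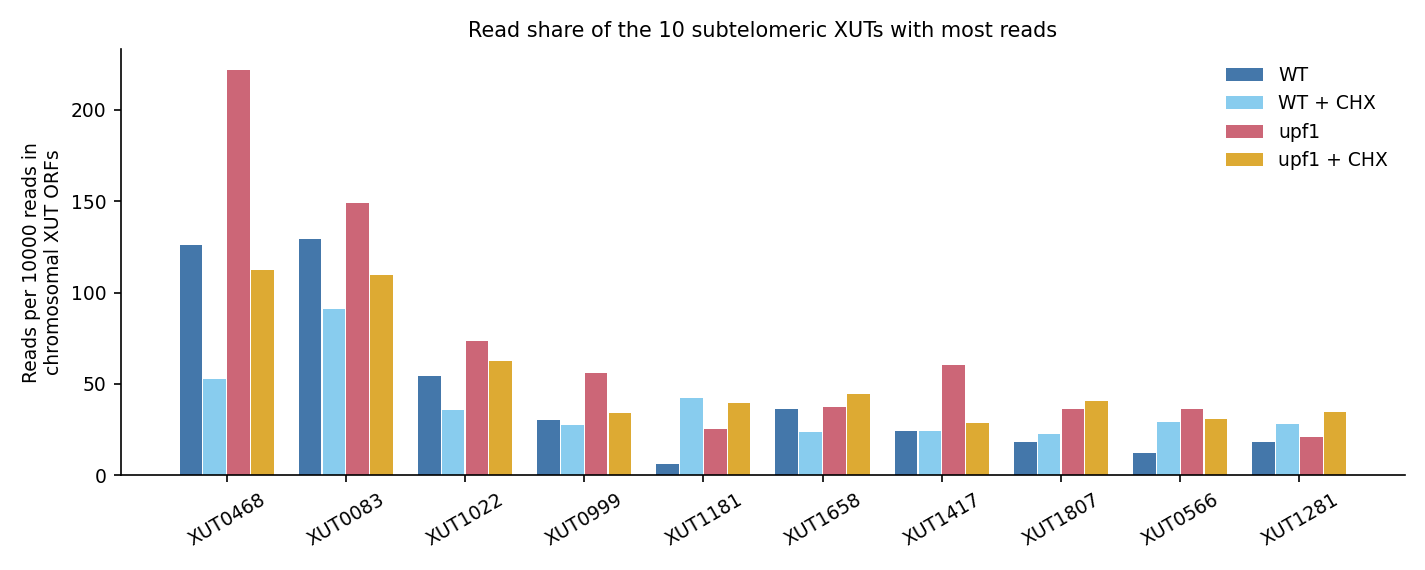
Reads per 10000 reads in chromosomal XUT ORFs (vertical axis) for the 10 subtelomeric XUTs with most reads (horizontal axis), 1 bar per condition, counting member ORFs only and without replicate error. XUT0468 stands at 222 in upf1 and 52.8 in WT + CHX, and XUT1181 is lowest in WT at 6.0.

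To compare transcripts between conditions, the share of each XUT was taken where it had at least 20 reads over both conditions, and a ratio of 2 or more in either direction was counted. Because WT holds far fewer reads, this minimum admits mostly XUTs that are high in the other condition, for members and others alike, so these counts describe the XUTs that could be compared. For upf1 against WT, 36 of the 192 subtelomeric XUTs could be compared. Of these, 15 (41.7%, 25.5 to 59.2) were at least 2-fold higher against a background of 30.9%, which lies inside that interval. At least 2-fold lower were 0, against 8.36%. The median ratio was 1.82 in members and 1.35 in the other XUTs. The ratio lay above 1 for 33 of the 36, and for 153 of the 239 other XUTs that could be compared. The interval lay above 1 for 6 of the 36 (16.7%), against a background of 14.5%, and below 1 for 0, against 6.91%. The share at least 2-fold higher was 33.3% without repeated ORFs and 55.6% with plasmid ORFs kept in the total. The backgrounds under these settings are not given here.

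With CHX, 63 subtelomeric XUTs could be compared between upf1 and WT. Of these, 5 (7.94%) were at least 2-fold higher, against a background of 5.22%, and 4 (6.35%) were at least 2-fold lower, against 7.12%. The median ratio was 1.14 in members and 0.951 in the others. The interval lay above 1 for 10 (15.9%), against a background of 8.07%, and below 1 for 4 (6.35%), against 9.34%. CHX in WT left 37 to compare, 13 (35.1%) higher against a background of 30.1% and 4 (10.8%) lower against 9.54%, with medians of 1.37 and 1.24. Intervals there lay above 1 for 3 (8.11%), against a background of 9.29%, and below 1 for 3 (8.11%), against 7.58%. CHX in upf1 left 57, with 4 (7.02%) higher against a background of 20.7% and 9 (15.8%) lower against 9.68%. There the median was 0.848 in members and 1.17 in the others. Intervals lay above 1 for 5 (8.77%), against a background of 20.9%, and below 1 for 15 (26.3%), against 15.3%.

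**Figure D4:**
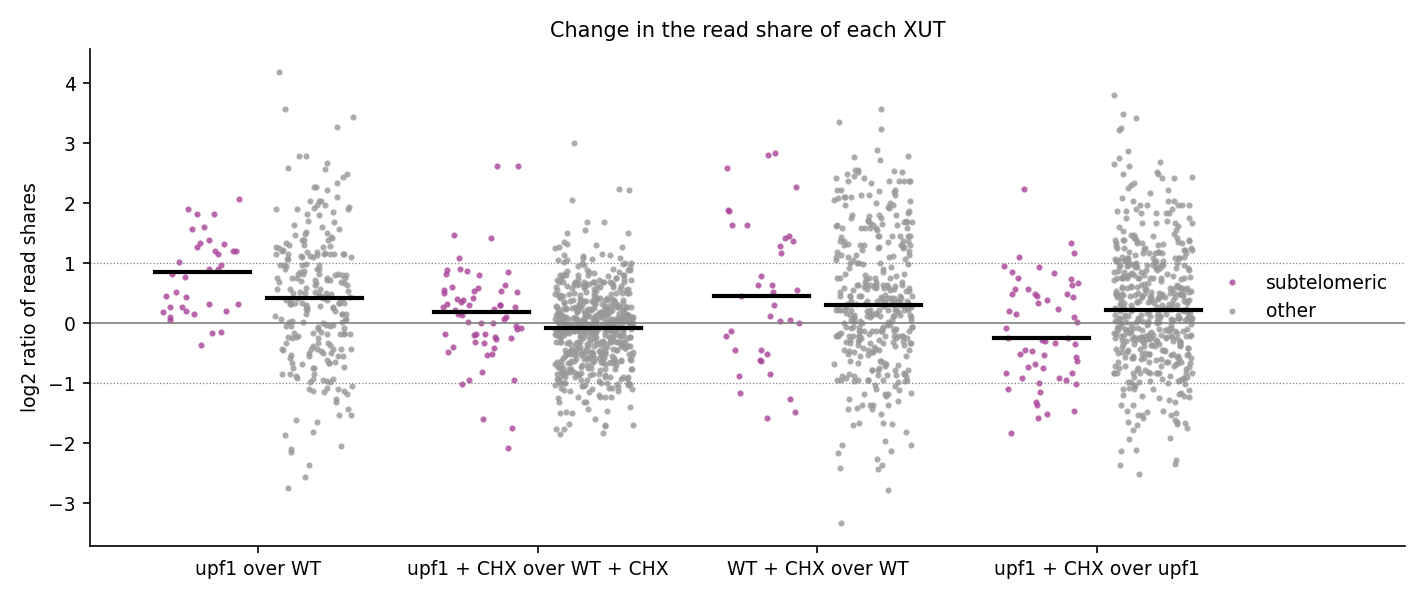
log2 ratio of the share of reads between 2 conditions (vertical axis) for each XUT with at least 20 reads over both, in the 4 contrasts (horizontal axis), subtelomeric XUTs in purple and others in grey, with black bars at the medians, dotted lines at 2-fold and a count of 0 set to 3 reads. On this log2 axis the subtelomeric median is 0.86 for upf1 over WT and -0.24 for upf1 + CHX over upf1.

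3 subtelomeric XUTs had no read in WT and at least 20 in upf1. XUT1467 had 40 reads against 0, a ratio of 2.49 in share when the count of 0 is set to 3 reads. XUT0788 and XUT1415 each had 20 against 0, a ratio of 1.25 on the same setting. These ratios depend on the set count of 3 and are not lower limits of an interval. XUT1467 lies opposite GEX2, a glutathione exchanger gene, 4664 nt from the right end of chromosome 11, and its 252-nt ORF is 75.4% repeated. It had 0, 12, 39 and 39 reads in WT, WT + CHX, upf1 and upf1 + CHX, with scores of 0.485, 0.291 and 0.438 in the conditions with reads. With CHX the share of XUT1467 was 2.69-fold that in WT (1.39 to 5.64).

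Among XUTs with reads in both conditions, XUT1181 had the highest upf1 over WT ratio, 4.20 (1.10 to 35.8), from 45 and 2 reads. It was followed by XUT1353 with 20 and 1 reads, 3.74 (0.598 to 155), and by XUT0931 with 19 and 1 reads, 3.55 (0.564 to 148). XUT0257, which lies in part opposite the hexose transporter gene HXT13, had 38 and 2 reads and a ratio of 3.55 (0.918 to 30.4). Its ORFs opposite HXT13 held 15 and 0 reads. The lowest was XUT0305, with 50 and 12 reads and a ratio of 0.779 (0.409 to 1.61). Its ORFs opposite the transcription factor gene TOG1 had none of these reads. Next came XUT1808 at 0.897, XUT0467 at 0.911 and XUT1658 at 1.04, whose intervals all held 1.

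With CHX, XUT0788 and XUT0325 had 23 reads each in upf1 and 3 each in WT, a ratio of 6.20 (1.87 to 32.2). XUT0788 lies 3526 to 3928 nt from the left end of chromosome 15. XUT0325 lies in part opposite the mannosyltransferase gene MNT2, but the ORFs there held only 2 reads in upf1 and 1 in WT. An 18-nt ORF of XUT0325 that is not opposite a gene held 17 and 0. XUT0257 followed at 2.79 (1.40 to 6.06). The lowest were XUT0411 with 5 and 17 reads, 0.238 (0.0686 to 0.671), XUT0791 with 17 and 46 reads, 0.299 (0.161 to 0.531), and XUT0409 with 7 and 17 reads, 0.333 (0.117 to 0.845). XUT0411 and XUT0409 both lie near COS6 on the right end of chromosome 7. XUT1739, opposite the S-adenosylmethionine genes SAM3 and SAM4, had 8 and 13 reads, 0.497 (0.179 to 1.29).

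Shares of single XUTs also differed with CHX. In WT, XUT1181 went from 2 to 108 reads, a ratio of 7.04 (1.90 to 58.8), XUT1412 from 1 to 55, 7.17 (1.23 to 288), XUT0791 from 1 to 46, 5.99 (1.02 to 242), and XUT1465 from 1 to 37, 4.82 (0.813 to 195). XUT0468 was lower at 0.419 (0.294 to 0.607), as were XUT0305 at 0.337 (0.168 to 0.720) and XUT0467 at 0.358 (0.198 to 0.680). The interval of XUT0925, at 0.447, held 1. In upf1, XUT0252, near the ferulic acid decarboxylase gene FDC1, was highest with CHX, at 4.73 (1.88 to 15.3). The lowest in upf1 were XUT0467 at 0.282 (0.187 to 0.419), XUT0925, opposite the oligopeptide transporter gene OPT2, at 0.335 (0.218 to 0.508), XUT0001 at 0.350 (0.183 to 0.652) and XUT0251 at 0.362 (0.138 to 0.899).

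Among chromosome ends, the left end of chromosome 9 (IXL) led in upf1 with 486 reads, 2.73% of chromosomal XUT ORF reads, followed by IIIL at 1.49%, XIL at 1.17% and XVIR at 1.04%. IIIL holds a single XUT, XUT0083. At the other extreme, the 21 ORFs of XL had no read in any condition, and the 24 ORFs of VIIIR had 0, 1, 2 and 0. Repeats were present in 90.5% of the XL ORFs and in 100% of those of VIIIR. An end rich in repeats could still hold reads, since XVR, with repeats in 86.4% of its ORFs, had 3, 52, 37 and 77.

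The share in upf1 was above that in WT at 23 of the 26 ends with at least 20 reads over both conditions, with a median ratio of 1.47. The interval lay above 1 at 3 of them: IXL at 1.46 (1.12 to 1.94), XIL at 3.25 (1.82 to 6.40) and XIR at 4.73 (1.56 to 23.5). VIIR went the other way, at 0.448 (0.239 to 0.882). Because WT holds far fewer reads, the minimum of 20 was met mostly through upf1 reads. Among the ends it left out, IR (0.747), VIL (0.685) and XIVL (0.654) were below 1 and XIIR (1.31) above it, all with intervals that held 1. The remaining ends left out, XL and VIIIR, had no read in WT. With CHX the mutant was higher at 21 of 28 ends, with a median of 1.16 and intervals above 1 at 6 ends, and VIIR was again lower, at 0.645 (0.484 to 0.858). VIIR is the end that carries XUT0409, XUT0411 and the 15-nt ORF of XUT1279.

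**Figure D5:**
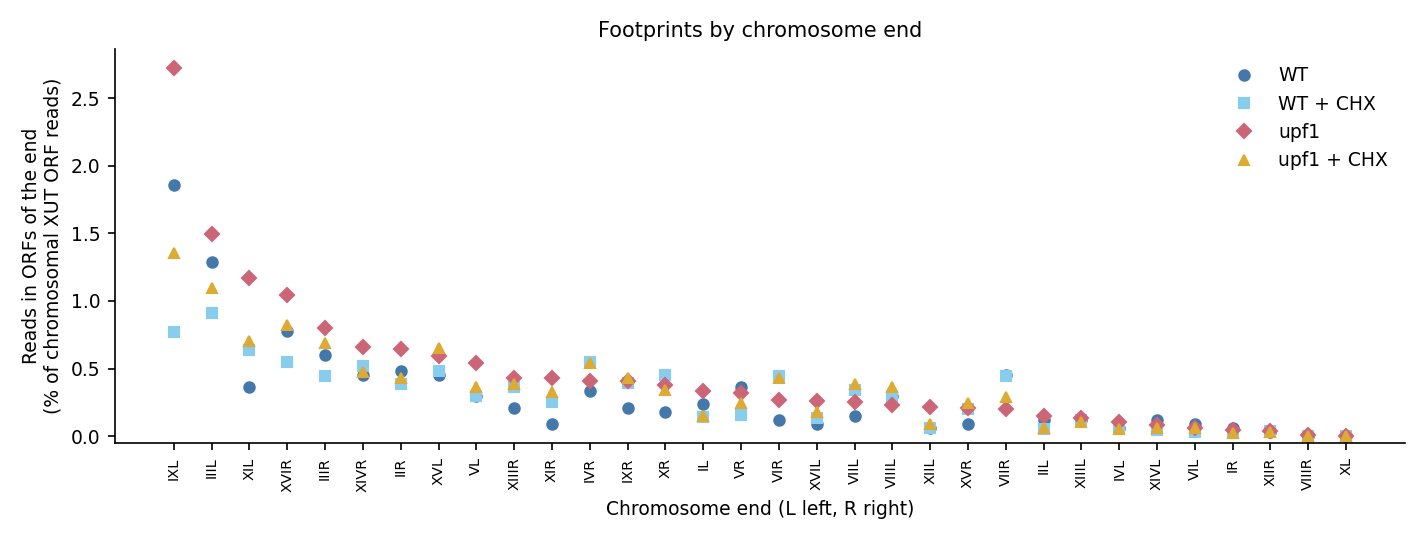
Percent of chromosomal XUT ORF reads that lie in the member ORFs of each chromosome end (vertical axis), for the 32 ends in order of their upf1 value (horizontal axis), 1 symbol per condition, without replicate error. IXL is highest in upf1 at 2.73%, and XL has no read in any condition.

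Reads were also counted by the direction of the ORFs. Member ORFs that run away from the chromosome end were 971 of the 1887, and they held 66.3% of the member reads of WT, 63.6% for WT + CHX, 69.5% for upf1 and 65.6% for upf1 + CHX. Among other ORFs the same orientation held 53.9%, 50.1%, 49.5% and 49.8% of reads. XUT0468 and XUT0083 both run away from the end. Without these 2 XUTs, the members running away held 54.8% (48.4 to 61.1), 57.2% (55.0 to 59.3), 59.2% (56.9 to 61.4) and 57.2% (55.4 to 59.0) of the remaining member reads, and in WT that interval included the value of the others. This setting was chosen after seeing the data. The first listed ORF of a transcript held 38.2%, 36.9%, 35.5% and 37.1% of member reads in the 4 conditions, against 36.3%, 43.7%, 37.0% and 44.6% of the reads of the others.

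Members lay opposite 90 annotated genes, 28 of which had no member read on their opposite strand in any condition. The like count for genes opposite the other ORFs is not given here, so this is not shown to be particular to members. By gene family, the YRF1 helicases were the extreme: all 8 genes of the genome lie within 30 kb of an end, all 8 had member ORFs opposite them, and these 41 ORFs, all repeated, had no read in any condition. Maltose and isomaltose genes (MAL12, MAL32 and the maltose permease gene MPH3) had 6 member ORFs opposite, and the vitamin B6 synthesis genes SNZ2 and SNZ3 had 7. All 13 held repeats and none had a read.

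Hexose transporter genes had 54 member ORFs opposite 4 genes (HXT9, HXT11, HXT13 and HXT15), of which 49 held repeats. These had 1, 13, 29 and 13 reads in WT, WT + CHX, upf1 and upf1 + CHX. Flocculin genes FLO1 and FLO9 had 27 ORFs opposite, 20 with repeats, and 4, 6, 15 and 14 reads. The putative aryl-alcohol dehydrogenase genes AAD3 and AAD14 had 14 ORFs opposite and 4, 9, 16 and 20 reads. COS6 was the 1 COS gene of 11 within 30 kb with member ORFs opposite, 7 of them, which had 0, 0, 1 and 1 reads.

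Families with few or no repeats also had reads. The iron-uptake genes FET4 and FRE2 had 20 repeat-free ORFs opposite, with 1, 10, 16 and 22 reads, all of them opposite FET4, the low-affinity iron transporter gene. ARR3, an arsenite exporter gene, had 3 ORFs opposite with 1, 5, 2 and 5 reads. Outside these families, 3 genes of a mixed list of transport and metabolism genes, GEX2, MCH2 and OPT2, had 52 ORFs opposite with 6, 24, 92 and 59 reads. Of the 92 reads in upf1, 40 lay in the 6 ORFs opposite GEX2, all of which hold repeats. No member lay opposite any of the 19 PAU seripauperin genes or the 4 THI5-family genes within 30 kb of an end.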

How the data were processed

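The deposited table gives, for each XUT ORF, a read count and a phase score that the authors computed per condition. The deposited counts are whole numbers not scaled to library size, and the deposited score runs from 0 to 1. The notes on processing by the submitters name HISAT2 2.2.0, cutadapt, UMI-tools and build R64. Not given in the sources used here are how ORFs were listed and scored, the strand setting, what was done with reads that map to several places, and how replicates were combined. For 98.5% of ORFs the deposited pooled count was the sum over conditions. No per-sample column was left unused (0).

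Sums used ORFs that do not overlap on a strand, taken in order of pooled count (9188 on chromosomes), and shares are of their reads on the 16 chromosomes. Totals cover XUT ORFs and are not library depths. Repeats are 28-base stretches, centred on each base of an ORF and so including flanking bases, that are present more than once in R64 on either strand. Intervals are exact: Clopper-Pearson for shares and conditional binomial for ratios, at 95%, and a count of 0 was set to 3 in ratios. The planned edgeR tests, the replicate block and leaving out replicates were not run, because the table holds 1 value per condition. XUTs and ORFs were named by read rank, by at least 10 reads in all conditions, by the 4 highest and 4 lowest ratios per contrast, by distance bin, by length (5 longest), by gene family and by repeat copies; exceptions are stated. The members and lists were chosen with earlier results of these data known. Alternatives covered the ORFs summed, the window, repeats, the plasmid, read minimums, the score threshold and the leading transcripts. The computations were tested on simulated data and made in Python 3.11.15 with pandas 2.3.3, NumPy 2.4.6, SciPy 1.17.1 and matplotlib 3.10.9.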

Additional observations from a re-analysis of the deposited data

How the results depend on the processing

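Of 152 values recomputed under 13 settings, 86 stayed within the 95% counting interval of the reported value or, for counts of XUTs, within 1.5 times of it, 62 left that range and 4 reversed. Values follow the order WT, WT + CHX, upf1 and upf1 + CHX, and the cause of a move was not tested beyond what a setting removes. A window of 20 kb gave read shares of 4.41%, 5.07%, 6.38% and 5.97% and density ratios of 0.558, 0.646, 0.825 (reversed) and 0.768. It gave share ratios of 1.15 for WT + CHX over WT and 0.935 for upf1 + CHX over upf1, 8.91% of members read in WT and 75.8% called in upf1. Without repeated 28-mers the read shares in the last 3 conditions were 8.99%, 13.8% and 10.6%, the density ratios 0.880, 0.814, 1.32 and 0.977, and the ORFs read in the last 3 conditions 35.1%, 41.8% and 42.1%. The XUTs at least 2-fold lower in upf1 + CHX over WT + CHX were then 3.70%, and those higher in upf1 + CHX over upf1 4.08%. That setting for the XUT ratios was chosen after seeing the data. With plasmid ORFs in the total, read shares were 7.50%, 8.97%, 13.0% and 10.7%. Share ratios were then 1.74 for upf1 over WT, 1.20 for WT + CHX over WT and 0.823 for upf1 + CHX over upf1, with 5.41% of XUTs lower in WT + CHX over WT and 10.5% higher in upf1 + CHX over upf1. Without XUT0468, shares were 8.91%, 9.12%, 12.7% and 10.4% and density ratios 0.632, 0.648, 0.937 (reversed) and 0.746. Without XUT0468 and XUT0083, a setting chosen after seeing the data, shares were 7.70%, 8.28%, 11.3% and 9.34%, density ratios 0.541, 0.585, 0.827 (reversed) and 0.668, and share ratios 1.08 for WT + CHX over WT and 0.826 for upf1 + CHX over upf1. Without ORFs on the strand of a CDS or pseudogene, also chosen after seeing the data, shares were 8.94%, 9.11%, 12.6% and 10.3% and density ratios 0.639, 0.652, 0.941 (reversed) and 0.750. In the non-overlapping set 12.5% of members were read in WT and 32.7% in WT + CHX. A minimum of 20 reads gave 45.5% called in upf1, and a score of 0.4 gave 46.7% in WT + CHX and 56.7% in upf1 + CHX. A minimum of 40 reads per XUT gave 2.63% lower in upf1 + CHX over WT + CHX and 2.63% higher in upf1 + CHX over upf1. All listed ORFs, a non-overlapping set by length, and a minimum of 5 reads took no value out of that range, although the last changed the share called from 100% (of 4 members) to 85.7% in WT and from 62.3% to 70.9% in upf1. The higher share in upf1 than in WT kept its direction under the 8 settings run for it. No paired analysis was possible because the table merges the replicates into 1 value per condition, and leaving out each replicate was not run for the same reason.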
